A study of Mus musculus with 20 samples.

Results

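Nras and 9 genes of the feedback loop around the Ras-MAPK pathway were followed through RNA-seq of the murine liver cancer line p19/Nras, which grew out of a tumor driven by Nras. The 10 genes (Nras, Dusp4, Dusp5, Dusp6, Spry2, Spry4, Spred1, Etv4, Etv5 and Phlda1) were taken by name, with no threshold on their values. All 10 were listed in both count tables, among 13107 genes in the first and 11210 genes in the second.

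Every library came from p19/Nras cells, whose p19Arf gene was knocked out in the mouse of origin. In the first experiment, Trim33-WT cells (sgCtrl) and the CRISPR knockout lines Trim33-KO1 and Trim33-KO2 (sgTrim33) carried a pWZL control vector or a Myc vector, which gives the groups WT Ctrl, KO1 Ctrl, KO2 Ctrl, WT Myc, KO1 Myc and KO2 Myc with 2 libraries each. In the second experiment, Trim33-WT and Trim33-KO cells without a vector named in the labels received a vehicle or 1 mM hydroxyurea (HU), an inhibitor of ribonucleotide reductase that stalls replication forks, for 4 h, again with 2 libraries in each of the 4 groups. The labels do not say which knockout line the HU experiment used, and they name each knockout line as a line without giving the number of clones in it. Nothing in them says that the libraries of a group came from separate cultures, so the p-values below measure the spread between these libraries, which may be technical.

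Nras encodes a small GTPase that, when bound to GTP, activates the Raf, Mek and Erk kinases in turn. Active Erk induces genes that switch the cascade off again. Among them are the dual-specificity phosphatases, which remove phosphate from Erk, and the Sprouty and Spred proteins, which block signaling around Ras and Raf. Erk also induces the ETS transcription factors Etv4 and Etv5 and the pleckstrin homology-like protein Phlda1, and transcripts of this kind are widely read as a gauge of Erk activity in tumors.

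Levels between genes were compared per kilobase of exon, as counts-per-million (CPM) divided by the length of all annotated exons. In WT Ctrl cells Nras stood highest, at 207 CPM per kilobase, ahead of Phlda1 at 146, Dusp4 at 95.6 and Dusp6 at 93.3. The others lay between 30.1 for Dusp5 and 10.3 for Spry4. In vehicle-treated WT cells of the HU experiment Phlda1 and Nras led at 85.1 and 83.8 CPM per kilobase, with Dusp6 at 54.0 and Etv5 lowest at 6.13. The 2 tables were scaled separately, so levels are not set against each other across them. A transcript of an oncogenic Nras vector and that of the endogenous gene cannot be told apart in counts per gene.

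The genes lie apart in the genome. On mm9, the build of the reads, GENCODE M1 places Nras at chr3:102862152-102871837, Dusp4 at chr8:35870351-35882948, Dusp5 at chr19:53603599-53616921 and Dusp6 at chr10:98725865-98730122. Spry2 lies at chr14:106291166-106296036, Spred1 at chr2:116947110-117008015, Etv4 at chr11:101631056-101646685, Etv5 at chr16:22381382-22439792 and Phlda1 at chr10:110943342-110945705. The exons of the 10 genes overlapped the exons of 0 other genes in this annotation.

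RefSeq promoters on GRCm38.p6 were at hand for 6 of the 10 genes, with 7 starts in all, Etv5 having a pair. Those of Dusp5, Dusp6 and Etv5 are shown because they held a motif and their genes fell (Dusp5, Etv5) or rose (Dusp6) in both knockout lines, as described below. Spry2, which fell in both lines too, and Spred1 held none of the motifs. Each line gives the 150 bases before the start, 5′ to 3′ on the strand of the gene, with the motif matches in capitals. The Dusp5 window is chr19:53528995-53529144 on the plus strand, that of Dusp6 is chr10:99263081-99263230 on the plus strand and that of the upstream Etv5 start is chr16:22439571-22439720 on the minus strand.
Dusp5: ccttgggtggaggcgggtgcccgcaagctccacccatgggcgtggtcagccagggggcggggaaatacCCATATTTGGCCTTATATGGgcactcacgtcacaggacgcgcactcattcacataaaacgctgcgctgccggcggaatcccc
Dusp6: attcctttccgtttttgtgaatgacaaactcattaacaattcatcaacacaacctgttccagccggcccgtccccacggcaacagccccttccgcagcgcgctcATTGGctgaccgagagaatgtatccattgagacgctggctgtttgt
Etv5: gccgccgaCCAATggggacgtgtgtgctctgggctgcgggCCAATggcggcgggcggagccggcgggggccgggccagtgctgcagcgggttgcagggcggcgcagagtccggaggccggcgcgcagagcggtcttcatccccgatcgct
The Dusp5 promoter held a pair of adjoining CArG boxes, the element bound by serum response factor, at -82 to -73 and -72 to -63 from the start. Of all 32851 promoters (250 bases before to 50 after the start), 1.63% held a CArG box, a motif that was added to the search after this sequence had been seen. The capitals in Dusp6 and Etv5 mark the CCAAT box (CCAAT, either strand), which 37.4% of all promoters held. Nras held the E-box CACGTG at -15 to -10, as did 7.15% of promoters. CCGGAAG, the ETS core, was in 8.86% of promoters, TGANTCA (AP-1) in 7.81%, TGACGTCA (CRE) in 1.79% and GCGGGAA (E2F) in 4.6%, and these letters were not found in the windows of the 6 genes on either strand.

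The first experiment had 14753177 to 17949430 counts per library and the HU experiment 2315327 to 3082202, and the variation between libraries shared by all genes was a coefficient of 0.0498 and 0.102. Trim33 stood at 246 and 258 CPM in WT Ctrl, 123 and 130.4 in the KO1 Ctrl pair and 201 and 207 in the KO2 Ctrl pair. With the Myc vector it stood at 131 and 155 in the libraries labelled WT Myc, 185 and 193 where the label was KO1 Myc and 124 and 125 where it was KO2 Myc. The libraries labelled KO1 Myc therefore held more Trim33 transcript than those labelled WT Myc (log2 fold change 0.40, adjusted p = 0.000243 by edgeR), against their labels. A CRISPR edit need not remove the transcript, so Trim33 counts check the labels only in part, and values with the Myc vector are those of the libraries as labelled. Myc stood at 456 and 458 CPM in WT Myc against 433 and 439 in WT Ctrl (log2 fold change 0.07, adjusted p = 0.310), and at 621 and 646 in KO1 Myc against 186 and 196 in KO1 Ctrl. It rose by 1.73 on the log2 scale in KO1 and by 1.16 in KO2 (edgeR adjusted p = 1.20e-12 and 9.14e-11). In the HU experiment, Trim33 ran from 43.8 to 52.2 CPM in the KO libraries and from 125 to 142 in the WT libraries. Of 8 hepatocyte markers only Afp was in either table, and the 3 endothelial markers were in neither. Of 3 epithelial markers, the keratins Krt8 and Krt18 were abundant, and Cdh1 was in neither table. Afp stood at 30.2 to 33.0 CPM in WT Ctrl, 0.798 to 0.920 in KO1 Ctrl, 8.13 to 8.56 in KO2 Ctrl, 19.5 to 25.1 in WT Myc, 2.53 to 3.55 in KO1 Myc and 0.221 to 0.297 in KO2 Myc, and in the HU experiment it ran from 11.4 to 17.1 in WT and from 20.5 to 26.9 in KO. Cdkn2a, the locus of p19Arf, still gave 9.70 to 31.3 CPM, and counts per gene do not separate its transcripts. The 6 mesenchymal markers summed to 2911 to 3102 CPM in WT Ctrl, 3834 to 3927 in KO1 Ctrl and 3201 to 3242 in KO2 Ctrl. Of 5 biliary or progenitor markers, Krt7 and Epcam were in neither table. The other 3, Krt19, Sox9 and Spp1, summed to 2789 to 2835 CPM in WT Ctrl, 2035 to 2110 in the KO1 Ctrl pair, 1806 to 1862 in the KO2 Ctrl pair, 1289 to 1484 in WT Myc, 1087 to 1096 in KO1 Myc and 1244 to 1347 in KO2 Myc. Krt8 and Krt18 together stood at 3745 to 3891 CPM in WT Ctrl, 3126 to 3171 in the KO1 Ctrl pair, 3326 to 3379.9 in the KO2 Ctrl pair, 2792 to 3199 in WT Myc, 2867 to 3045 in KO1 Myc and 1861 to 1897 in KO2 Myc. The part of these markers in the results below was not tested.

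**Figure D1:**
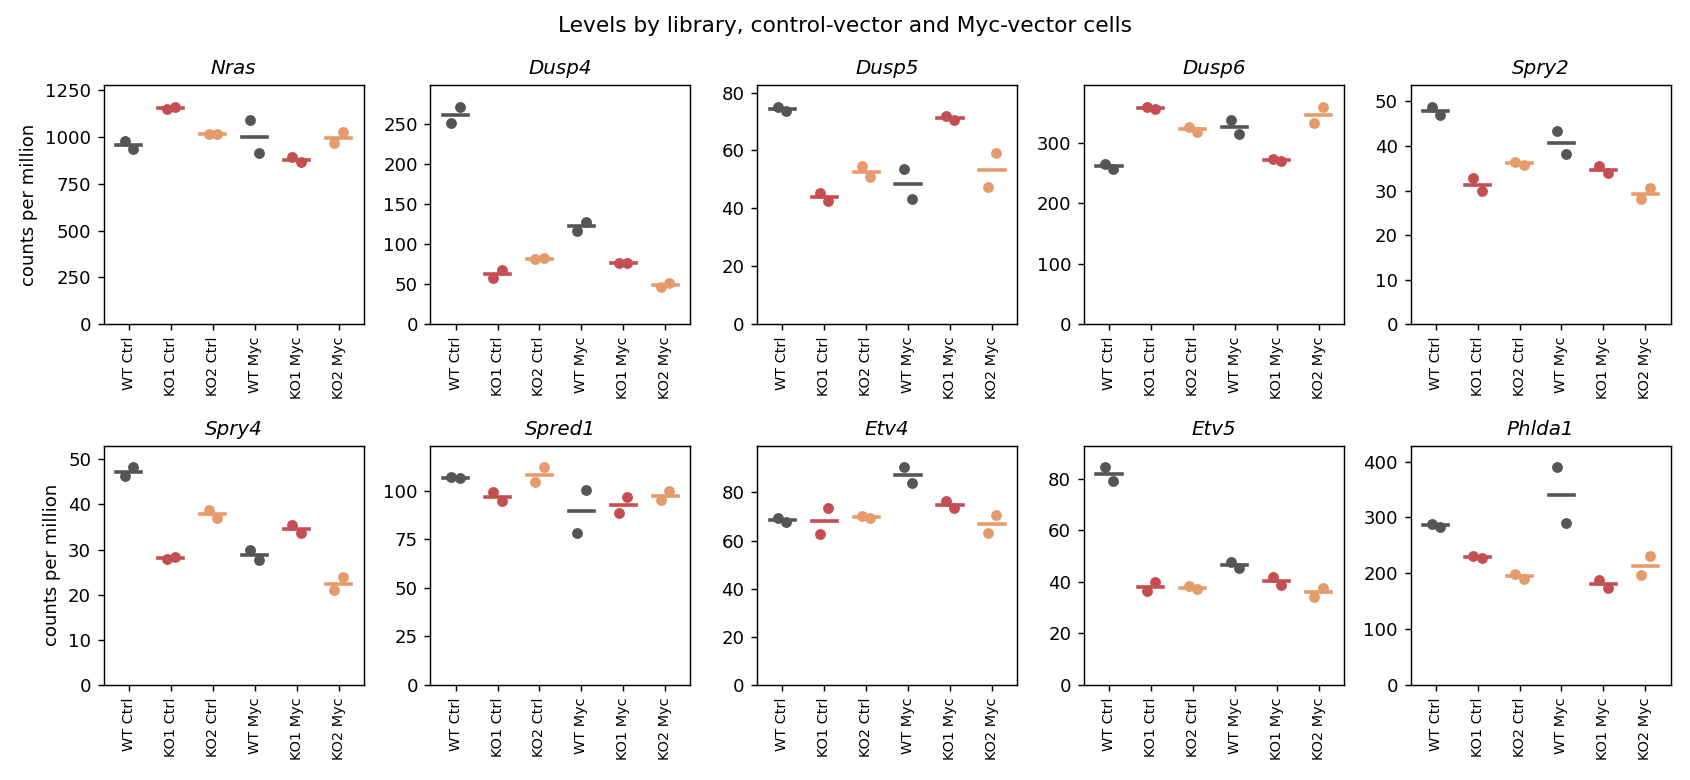
CPM (vertical axes, linear, from 0) of the 10 genes in the 12 libraries of the first experiment, with groups along the horizontal axes, 1 point per library and a bar at the mean of 2. Dusp4 is highest in WT Ctrl (252 and 272) and lower in every other group, and Etv5 shows the same gap on a smaller scale, while Nras stays between 865 and 1162.

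The first question was what loss of Trim33 does to these transcripts in control-vector cells. In KO1 Ctrl, 7 of the 10 genes passed edgeR's quasi-likelihood test at an adjusted p below 0.01, with Nras and Dusp6 higher and Dusp4, Dusp5, Spry2, Spry4 and Etv5 lower than in WT Ctrl. Among all genes 52.2% passed, 25.5% higher and 26.7% lower. In KO2 Ctrl, 7 genes also passed, Dusp6 higher and Dusp4, Dusp5, Spry2, Spry4, Etv5 and Phlda1 lower, against 49.9% of all genes (23.3% higher, 26.6% lower). Over the 10 genes the median log2 fold change was -0.46 for KO1 Ctrl and -0.36 for KO2 Ctrl, and that of all genes was -0.0036 and -0.011. In bulk RNA, fewer cells that express a gene and less RNA per cell cannot be told apart. Both comparisons use the same pair of WT Ctrl libraries, so their values stand side by side and are not independent of each other.

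Among the phosphatases, Dusp4, a nuclear phosphatase of Erk, differed most. It stood at 252 and 272 CPM in WT Ctrl, 57.7 and 67.8 in the KO1 Ctrl pair and 81.3 and 83.0 in the KO2 Ctrl pair. The groups did not overlap, and the fall was 4.17-fold in KO1 Ctrl (log2 fold change -2.06, 95% confidence interval -2.23 to -1.90, edgeR adjusted p = 2.26e-12) and 3.19-fold in KO2 Ctrl (-1.67, -1.84 to -1.51, adjusted p = 3.27e-11). Dusp5, likewise a nuclear Erk phosphatase, stood at 75.1 and 73.6 CPM in WT Ctrl, 45.3 and 42.6 in the KO1 Ctrl pair and 54.5 and 50.7 in the KO2 Ctrl pair. It was 1.69-fold lower in KO1 Ctrl (edgeR adjusted p = 7.39e-06) and 1.41-fold lower in KO2 Ctrl (adjusted p = 0.000440). Dusp6, the cytoplasmic Erk phosphatase, went the other way, from 265 and 257 CPM in WT Ctrl to 359 and 355 in the KO1 Ctrl pair and 327 and 318 in the KO2 Ctrl pair. It rose 1.37-fold in KO1 Ctrl (log2 fold change 0.45, interval 0.34 to 0.57, edgeR adjusted p = 2.45e-06) and 1.24-fold in KO2 Ctrl (0.30, 0.19 to 0.42, adjusted p = 0.000168). The phosphatases of Erk thus moved in opposite directions within the same libraries.

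The Sprouty genes fell less steeply. Spry2 stood at 48.8 and 47.0 CPM in WT Ctrl, 32.8 and 29.9 in the KO1 Ctrl pair and 36.4 and 35.8 in the KO2 Ctrl pair, a fall of 1.53-fold (edgeR adjusted p = 6.30e-06) and 1.33-fold (adjusted p = 0.000333). Spry4 stood at 46.3 and 48.2 CPM in WT Ctrl, 27.9 and 28.4 in the KO1 Ctrl pair and 38.9 and 36.9 in the KO2 Ctrl pair, a fall of 1.68-fold (edgeR adjusted p = 5.23e-07) and 1.25-fold (adjusted p = 0.00193). The KO2 value of Spry4 (log2 fold change -0.32) did not pass without WT Ctrl replicate 2 (-0.29, adjusted p = 0.0223) or KO2 Ctrl replicate 2 (-0.28, adjusted p = 0.0261), at nearly the same size. Spred1, an inhibitor that recruits neurofibromin to Ras, did not pass in either line. Its log2 fold change was -0.14 (95% interval -0.33 to 0.05) in KO1 Ctrl and 0.02 (-0.17 to 0.21) in KO2 Ctrl.

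The ETS factors Etv4 and Etv5, close relatives that bind the same kind of site, parted. Etv5 stood at 84.4 and 79.2 CPM in WT Ctrl, 36.3 and 40.1 in the KO1 Ctrl pair and 38.3 and 37.3 in the KO2 Ctrl pair. It was 2.14-fold lower in KO1 Ctrl (log2 fold change -1.10, interval -1.26 to -0.94, edgeR adjusted p = 3.12e-09) and 2.17-fold lower in KO2 Ctrl (-1.11, -1.28 to -0.95, adjusted p = 3.43e-09). Etv4 ran from 62.9 to 73.4 CPM over these 6 libraries, and its log2 fold changes were -0.0072 (-0.17 to 0.16) and 0.03 (-0.14 to 0.19). Phlda1, an Erk-induced regulator of cell survival, stood at 289 and 283 CPM in WT Ctrl, 231 and 228 in the KO1 Ctrl pair and 199 and 190.1 in the KO2 Ctrl pair. It passed in KO2 Ctrl (log2 fold change -0.55, edgeR adjusted p = 0.000205) and missed the threshold in KO1 Ctrl (-0.32, adjusted p = 0.0130), where it passed with DESeq2 (adjusted p = 0.00587) and with only the compared groups in the fit (1.02e-06 by edgeR).

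Nras itself, the driver of the line, stood at 977 and 937 CPM in WT Ctrl, 1151 and 1162 in the KO1 Ctrl pair and 1018 and 1017 in the KO2 Ctrl pair. The rise in KO1 Ctrl was 1.21-fold (log2 fold change 0.27, interval 0.13 to 0.42, edgeR adjusted p = 0.00209), and the KO2 value of 0.09 (-0.05 to 0.23, adjusted p = 0.266) did not pass. The KO1 value did not pass without WT Ctrl replicate 2 (0.24, edgeR adjusted p = 0.0284), KO1 Ctrl replicate 1 (0.28, 0.0138) or KO1 Ctrl replicate 2 (0.27, 0.0184), although its size stayed close to that with all libraries. Hras, a close relative of Nras, did not pass, with log2 fold changes of 0.14 in KO1 Ctrl and 0.19 in KO2 Ctrl.

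**Figure D2:**
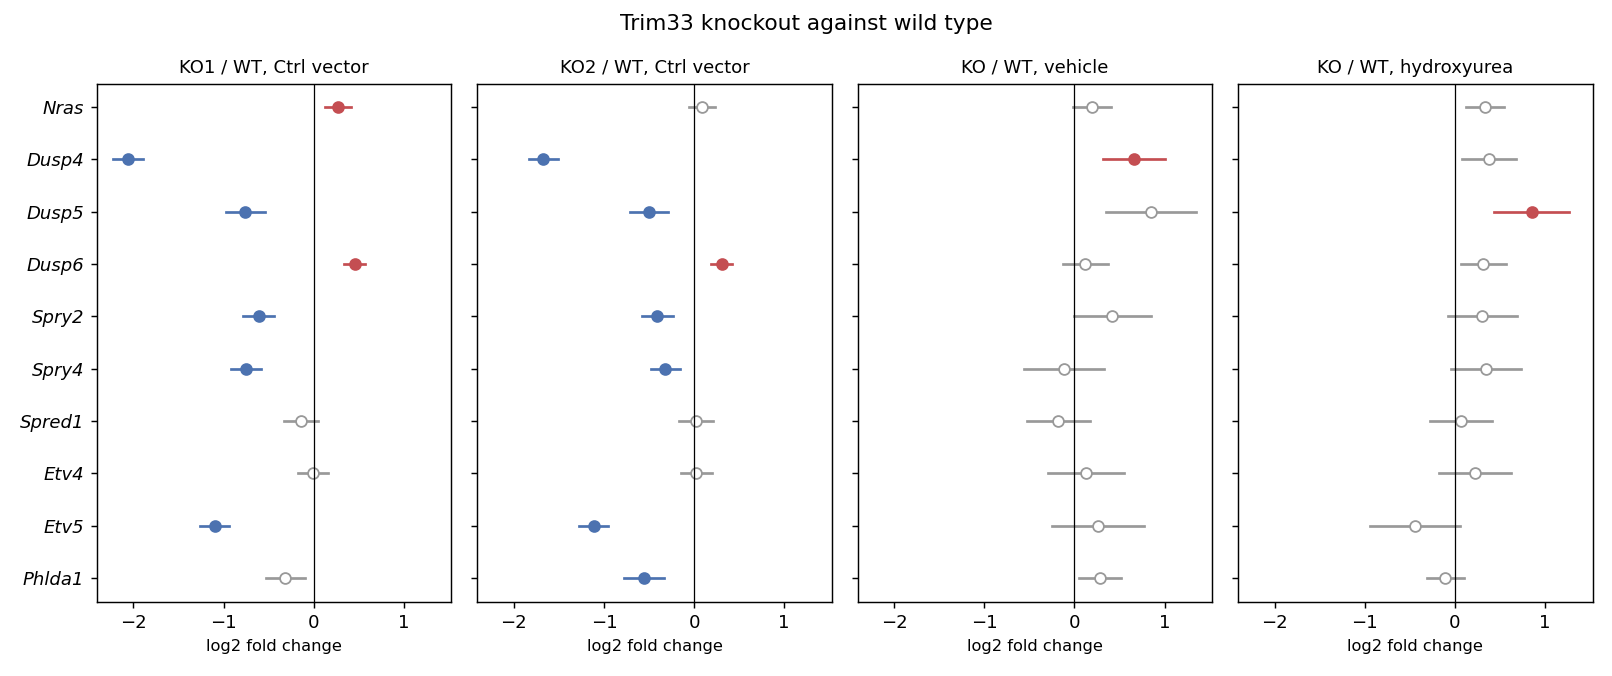
Log2 fold change of Trim33 knockout over wild type (horizontal axes) for each of the 10 genes (vertical axis) in control-vector cells and in the HU experiment, as points with 95% confidence intervals. Filled red and blue points passed the test as higher and lower, and open grey points did not. Dusp4 lies at -2.06 and -1.67 in the first 2 panels and at 0.66 and 0.38 in the last 2.

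Between the knockout lines the differences were smaller. Dusp4 (log2 fold change 0.39, edgeR adjusted p = 0.00162) and Spry4 (0.43, adjusted p = 0.000722) were higher in KO2 Ctrl than in KO1 Ctrl, that is 2 of the 10 genes against 18.3% of all genes (8.33% higher, 9.96% lower), and the medians were 0.097 for the 10 genes and -0.018 for all genes. Dusp4 did not pass without KO1 Ctrl replicate 1 (log2 fold change 0.28, adjusted p = 0.0473), KO2 Ctrl replicate 1 (0.40, adjusted p = 0.0125) or KO2 Ctrl replicate 2 (0.37, adjusted p = 0.0194), and Spry4 did not pass without KO1 Ctrl replicate 1 (0.42, adjusted p = 0.0124) or KO2 Ctrl replicate 1 (0.39, adjusted p = 0.0137). With only these 2 groups in the fit, 7 of the genes passed, the additions being Nras, Dusp5, Dusp6, Spred1 and Phlda1, while over all genes the count went from 2398 to 4029 of 13107. The other 8 genes had log2 fold changes from -0.24 (Phlda1) to 0.26 (Dusp5).

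The wider pathway list held 97 genes in 10 roles, of which 86 were in the table of the first experiment. In KO1 Ctrl 26 of the 86 were higher and 31 lower, and in KO2 Ctrl 20 were higher and 29 lower, that is 66.3% and 57.0% of the list against 52.2% and 49.9% of all genes, with list medians of 0.0085 and -0.069. Of 7 other MAPK phosphatases, 1 was higher and 4 were lower in each comparison, with medians of -0.77 in KO1 Ctrl and -0.90 in KO2 Ctrl. Of 13 Raf, Mek and Erk kinases and scaffolds, 5 were higher and 6 lower in KO1 Ctrl, and 4 were higher and 4 lower in KO2 Ctrl. The largest changes in the list were those of a receptor, a transcription factor and a ligand. Pdgfrb, a receptor tyrosine kinase of mesenchymal cells, rose from 16.3 and 16.9 CPM in WT Ctrl to 191 and 168 in KO1 Ctrl (log2 fold change 3.44, edgeR adjusted p = 1.09e-14) and 106 and 98.1 in KO2 Ctrl (2.62, adjusted p = 9.34e-13). It also belongs to the mesenchymal markers. Fos, the immediate-early gene downstream of Erk, rose from 14.7 and 14.8 CPM to 128 and 101 in KO1 Ctrl (2.96, edgeR adjusted p = 4.24e-11) and 95.4 and 93.4 in KO2 Ctrl (2.68, adjusted p = 2.16e-10). Areg, a ligand of the EGF receptor, fell from 445 and 421 CPM to 58.3 and 56.1 in KO1 Ctrl (-2.92, edgeR adjusted p = 5.71e-10) and 75.6 and 78.3 in KO2 Ctrl (-2.49, adjusted p = 3.83e-09). Targets of Erk thus moved both up and down. Between the lines, 7 of the 86 genes were higher and 11 lower in KO2 Ctrl (20.9%, against 18.3% of all genes), with Rasa4 (-1.48), Egfr (0.91) and Pdgfrb (-0.81) changing most.

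The Myc vector was examined next, in cells labelled WT and in each knockout line. In the libraries labelled WT Myc, 6 of the 10 genes passed against WT Ctrl, Dusp6 and Etv4 higher and Dusp4, Dusp5, Spry4 and Etv5 lower, while 44.3% of all genes passed (21.6% higher, 22.7% lower). The median log2 fold change of the 10 genes was -0.24, against 0.0069 over all genes. Dusp4 stood at 117 and 128 CPM, below both WT Ctrl libraries, a fall of 2.14-fold (log2 fold change -1.10, edgeR adjusted p = 6.77e-09). Etv5, at 47.8 and 45.5 CPM, was 1.75-fold lower (edgeR adjusted p = 1.90e-07), Spry4, at 29.9 and 27.7 CPM, 1.64-fold lower (adjusted p = 1.46e-06) and Dusp5, at 53.7 and 43.1 CPM, 1.54-fold lower (adjusted p = 7.43e-05). Dusp6, at 337 and 315 CPM, was 1.25-fold higher (edgeR adjusted p = 0.000129), and Etv4, at 90.4 and 84.1 CPM, 1.27-fold higher (log2 fold change 0.35, adjusted p = 0.00118, or 0.33 and 0.0161 without WT Ctrl replicate 2).

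The pair of WT Myc libraries differed from each other in several of these genes. Nras read 1090.0 and 915 CPM, Spred1 78.0 and 101, and Phlda1 389 and 289.9. None of these 3 genes passed against WT Ctrl with both libraries (log2 fold changes 0.07, -0.25 and 0.25, edgeR adjusted p = 0.410, 0.0236 and 0.0464). Without WT Myc replicate 2 all 3 passed, at 0.19 for Nras, -0.45 for Spred1 and 0.45 for Phlda1 (edgeR adjusted p = 0.00502, 1.07e-05 and 6.87e-06). Without WT Myc replicate 1 the values were -0.064, -0.085 and 0.020 (adjusted p = 0.347, 0.317 and 0.830), so that Nras changed sign. Spry2, at 43.3 and 38.2 CPM, did not pass either (-0.24, adjusted p = 0.0178), but did without WT Myc replicate 1 (-0.33, adjusted p = 0.00240).

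In the libraries labelled KO1 Myc, 5 genes passed against KO1 Ctrl, with 36.1% of all genes (17.9% higher, 18.2% lower) and medians of 0.11 for the 10 genes and 0.0066 for all. Dusp5 rose from 45.3 and 42.6 CPM to 71.98 and 70.7 (1.62-fold, edgeR adjusted p = 3.17e-05). Dusp6 fell from 359 and 355 CPM to 273 and 269, and Nras from 1151 and 1162 to 892 and 865, each by 0.40 on the log2 scale (edgeR adjusted p = 1.81e-05 and 0.000140). Neither pair overlapped. Dusp4 (log2 fold change 0.29, edgeR adjusted p = 0.00726) and Spry4 (0.30, adjusted p = 0.00650) were higher by small amounts. Dusp4 did not pass without KO1 Ctrl replicate 1 (0.18, adjusted p = 0.141), KO1 Myc replicate 1 (0.30, 0.0289) or KO1 Myc replicate 2 (0.30, 0.0284). Spry4 did not pass without KO1 Ctrl replicate 1 (0.28, adjusted p = 0.0482), KO1 Ctrl replicate 2 (0.31, 0.0323), KO1 Myc replicate 1 (0.28, 0.0407) or KO1 Myc replicate 2 (0.33, 0.0166), nor with DESeq2 (adjusted p = 0.0263). Phlda1 just missed the threshold (-0.35, edgeR adjusted p = 0.0110) and passed with DESeq2 (0.00365).

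In the libraries labelled KO2 Myc, 3 genes passed against KO2 Ctrl, with 38.8% of all genes (20.2% higher, 18.6% lower) and medians of -0.063 for the 10 genes and 0.017 for all. Spry4 fell from 38.9 and 36.9 CPM to 20.9 and 24.0 (1.69-fold, edgeR adjusted p = 1.45e-06), Dusp4 from 81.3 and 83.0 to 46.8 and 51.9 (1.66-fold, adjusted p = 1.81e-06) and Spry2 from 36.4 and 35.8 to 28.1 and 30.6 (1.23-fold, adjusted p = 0.00630). Spry2 did not pass without KO2 Ctrl replicate 1 (log2 fold change -0.29, adjusted p = 0.0413), KO2 Ctrl replicate 2 (-0.31, 0.0292), KO2 Myc replicate 1 (-0.24, 0.0664) or KO2 Myc replicate 2 (-0.36, 0.0114), nor with DESeq2 (adjusted p = 0.0123). Nras stayed at 966 and 1028 CPM (log2 fold change -0.03, interval -0.17 to 0.11).

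**Figure D3:**
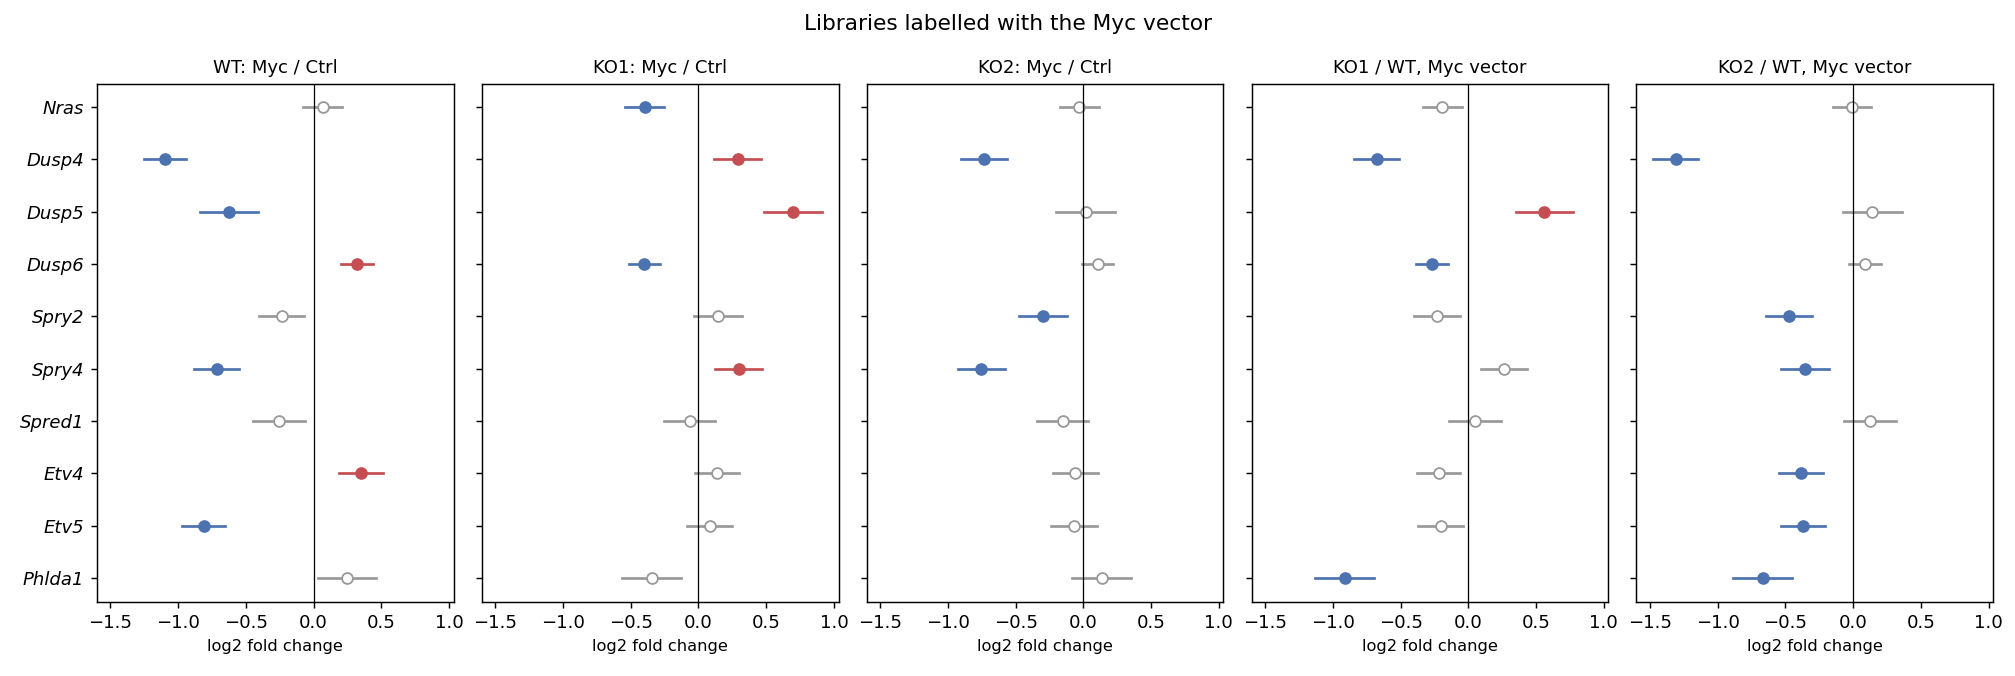
Log2 fold changes (horizontal axes) of the 10 genes (vertical axis) between Myc-vector and control-vector libraries in WT, KO1 and KO2 cells, and between knockout and WT libraries with the Myc vector, with 95% confidence intervals. Filled red and blue points passed the test as higher and lower. Dusp5 lies at -0.62 in WT and at 0.70 in KO1 cells.

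Whether the Myc-vector response differed between genotypes was tested with an interaction term, the log2 response of the knockout minus that of WT. For KO1 7 of the 10 genes passed, with 37.3% of all genes, and the medians were 0.28 for the 10 genes and 0.00045 for all. Dusp4 (1.38, 95% interval 1.15 to 1.62, edgeR adjusted p = 4.22e-08), Dusp5 (1.32, 1.02 to 1.63, adjusted p = 1.47e-06), Spry4 (1.01, adjusted p = 2.06e-06) and Etv5 (0.89, adjusted p = 4.95e-06) had the more positive response in KO1. Dusp6 (-0.72, edgeR adjusted p = 1.43e-06), Phlda1 (-0.59, adjusted p = 0.00279) and Nras (-0.46, adjusted p = 0.000729) had the more negative one. Phlda1 did not pass without WT Ctrl replicate 1 (-0.61, adjusted p = 0.0112), WT Ctrl replicate 2 (-0.58, 0.0158), KO1 Ctrl replicate 1 (-0.59, 0.0123), KO1 Ctrl replicate 2 (-0.60, 0.0101) or KO1 Myc replicate 2 (-0.54, 0.0159), and its value was -0.37 without WT Myc replicate 1 (0.00183). Spry2 (0.38, adjusted p = 0.0111) passed without WT Myc replicate 1 (0.47, adjusted p = 0.00117), and Spred1 (0.19, adjusted p = 0.231) without WT Myc replicate 2 (0.39, adjusted p = 0.00109). These terms share the libraries labelled WT Myc and KO1 Myc, in which Trim33 went against the labels. They also share the pair of WT Ctrl libraries, as do the KO2 terms and every comparison with WT Ctrl above. WT Ctrl had the highest mean of Dusp4, Dusp5, Spry4 and Etv5. Their lower levels in the other groups and their positive terms are thus not separate results.

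For KO2 3 genes passed, with 32.8% of all genes, and the medians were -0.051 for the 10 genes and 0.016 for all. Etv5 (0.74, interval 0.51 to 0.98, edgeR adjusted p = 4.02e-05) and Dusp5 (0.64, adjusted p = 0.00172) had the more positive response in KO2, and Etv4 (-0.41, adjusted p = 0.00633) the more negative one. Dusp5 did not pass without KO2 Ctrl replicate 2 (0.59, adjusted p = 0.0122) or KO2 Myc replicate 2 (0.47, 0.0145). Etv4 did not pass without WT Ctrl replicate 1 (-0.43, adjusted p = 0.0177), WT Ctrl replicate 2 (-0.39, 0.0288), KO2 Ctrl replicate 1 (-0.40, 0.0244), KO2 Ctrl replicate 2 (-0.42, 0.0204) or KO2 Myc replicate 1 (-0.33, 0.0365). Without WT Myc replicate 2 the term was 0.43 for Dusp4, 0.30 for Spred1, -0.31 for Phlda1 and -0.26 for Dusp6. With all libraries these values were 0.36, 0.10, -0.11 and -0.22.

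Set against the libraries labelled WT Myc, 4 genes passed in KO1 Myc, with 25.1% of all genes (12.6% higher, 12.5% lower) and medians of -0.21 for the 10 genes and -0.010 for all. Phlda1 was 1.88-fold lower (188 and 173 CPM, edgeR adjusted p = 4.38e-06), Dusp4 1.60-fold lower (77.2 and 76.2 CPM, adjusted p = 4.87e-06) and Dusp5 1.48-fold higher (71.98 and 70.7 CPM, adjusted p = 0.000372). Dusp6 was 1.20-fold lower (log2 fold change -0.27, edgeR adjusted p = 0.00124). It kept about this size but did not pass without KO1 Myc replicate 1 (-0.25, adjusted p = 0.0165), without KO1 Myc replicate 2 (-0.26, 0.0157) or with only the compared groups in the fit (-0.25, 0.0409). Without WT Myc replicate 2 the log2 fold change of Nras was -0.31, of Spry2 -0.32, of Etv4 -0.27 and of Spred1 0.25. With all libraries these values were -0.19, -0.23, -0.22 and 0.05.

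In KO2 Myc 6 genes passed against the libraries labelled WT Myc, with 35.2% of all genes (17.2% higher, 18% lower) and medians of -0.36 for the 10 genes and -0.0038 for all. Dusp4 was 2.48-fold lower (46.8 and 51.9 CPM, edgeR adjusted p = 1.45e-09), Phlda1 1.59-fold lower (196 and 231 CPM, log2 fold change -0.67, or -0.44 without WT Myc replicate 1, adjusted p = 5.46e-05) and Spry2 1.39-fold lower (28.1 and 30.6 CPM, adjusted p = 0.000165). Etv4 (log2 fold change -0.38, edgeR adjusted p = 0.000674), Etv5 (-0.37, adjusted p = 0.000978) and Spry4 (-0.36, adjusted p = 0.00237) were lower too. Without KO2 Myc replicate 1 only Dusp4, Phlda1 and Spry2 passed (Etv4 -0.30, Etv5 -0.30 and Spry4 -0.26, adjusted p = 0.0168, 0.0204 and 0.0457), and Spry4 did not pass without WT Myc replicate 1 (-0.30, adjusted p = 0.0161). Spred1 passed only without WT Myc replicate 2 (0.32, adjusted p = 0.000593). With only the compared groups in the fit, Etv5 (edgeR adjusted p = 0.0133) and Spry4 (adjusted p = 0.0315) did not pass.

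Of the 86 wider pathway genes, 18 were higher and 36 lower in WT Myc than in WT Ctrl, 16 higher and 26 lower in KO1 Myc than in KO1 Ctrl, and 14 higher and 18 lower in KO2 Myc than in KO2 Ctrl. These are 62.8%, 48.8% and 37.2% of the list, against 44.3%, 36.1% and 38.8% of all genes. Dusp2, an inducible nuclear phosphatase, rose in the 3 comparisons, from 4.24 and 3.55 CPM to 17.1 and 12.8 in WT (log2 fold change 1.94), from 1.86 and 1.58 to 5.76 and 6.18 in KO1 (1.79) and from 1.89 and 1.89 to 13.9 and 14.3 in KO2 (2.89). Fgfr1, a receptor for fibroblast growth factors, fell from 68.7 and 66.9 CPM to 17.1 and 15.5 in WT (-2.06) and from 73.9 and 85.8 to 11.8 and 13.6 in KO2 (-2.65). In KO1 it went from 62.5 and 64.2 to 27.0 and 31.6 CPM. Rps6ka1, a kinase activated by Erk, rose in WT (1.72), Igf1 (-2.26) and Pdgfrb (-1.73) fell in KO1, and Egfr (-2.05) fell in KO2. Rps6ka1 also rose in KO1 (21.0 and 23.7 to 43.1 and 49.3 CPM), and its libraries overlapped in KO2. Igf1 also fell in WT (5.51 and 5.67 to 3.38 and 3.37 CPM) but not in KO2. Pdgfrb rose in WT (16.3 and 16.9 to 39.8 and 41.6 CPM) and in KO2 (106 and 98.1 to 199 and 204). Egfr also fell in WT (11.4 and 11.6 to 5.01 and 7.10 CPM), and its libraries overlapped in KO1. In KO2 Myc Hras fell against KO2 Ctrl (-0.50, edgeR adjusted p = 0.000252), and it missed the threshold in WT and KO1. Between genotypes with the Myc vector, 18 of the 86 were higher and 15 lower in KO1 Myc, led by Dusp2 (-1.32), Rasa1 (1.16) and Dusp10 (-0.97), and 23 were higher and 16 lower in KO2 Myc, led by Pdgfrb (2.31), Btc (-1.25) and Egfr (-1.16). These are 38.4% and 45.3% of the list, against 25.1% and 35.2% of all genes. The genotype term passed for 45 genes of the list in KO1, led by Pdgfrb (-3.02), Fos (-2.94) and Rps6ka2 (2.64), and for 38 in KO2, led by Fos (-1.80), Rps6ka1 (-1.75) and Areg (1.73), which are 52.3% and 44.2% of the list, against 37.3% and 32.8% of all genes.

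**Figure D4:**
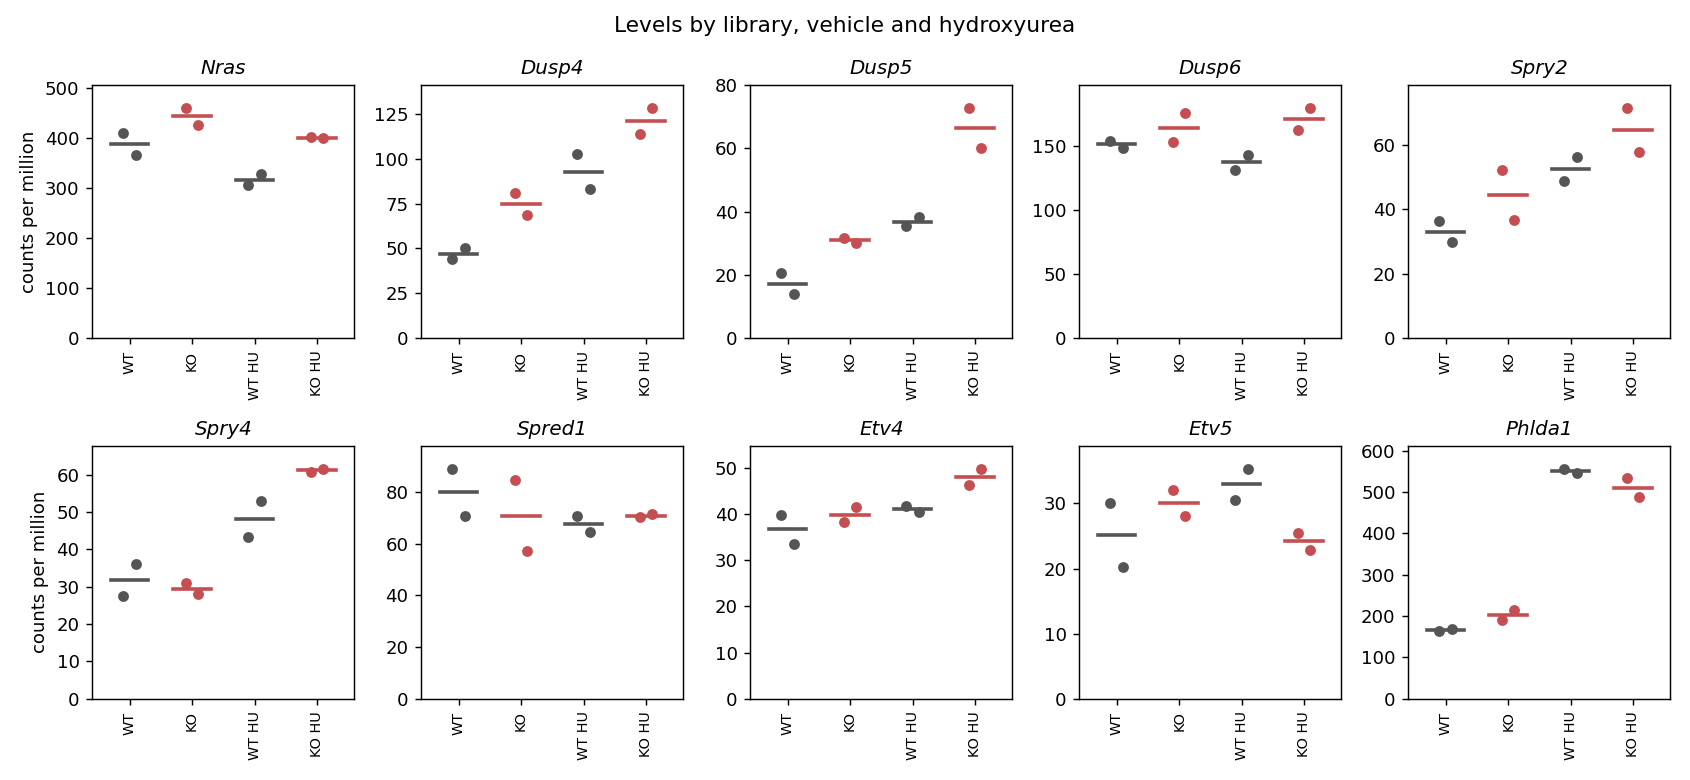
CPM (vertical axes, linear, from 0) of the 10 genes in the 8 libraries of the HU experiment, with groups along the horizontal axes, 1 point per library and a bar at the mean of 2. The HU libraries of Phlda1 (488 to 557) lie above the vehicle libraries (164 to 215), and those of Dusp5 are highest in KO HU (72.8 and 60.1).

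Trim33 loss was measured again in the vehicle-treated cells of the HU experiment. Only Dusp4 passed, with 5.58% of all genes (3.07% higher, 2.52% lower), and it was higher in the knockout. It stood at 44.1 and 49.998 CPM in WT and 80.9 and 68.5 in KO (1.58-fold, log2 fold change 0.66, interval 0.32 to 1.00, edgeR adjusted p = 0.00612). It did not pass with DESeq2 (0.66, adjusted p = 0.0247), with only the compared groups in the fit (0.66, 0.0193), with counts halved (0.63, 0.0132), or without WT replicate 1 (0.57, adjusted p = 0.0676), WT replicate 2 (0.75, 0.0174) or KO replicate 1 (0.52, 0.0886). Dusp5 stood at 20.6 and 13.9 CPM in WT and 31.7 and 30.1 in KO and missed the threshold (log2 fold change 0.85, interval 0.35 to 1.35, edgeR adjusted p = 0.0165). Nras stood at 409 and 366 CPM in WT and 460.2 and 427 in KO (0.19, -0.01 to 0.40, adjusted p = 0.244). The median log2 fold change of the 10 genes was 0.23, against -0.00013 over all genes.

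Dusp4, Dusp5, Spry2 and Phlda1 lay lower in every KO1 Ctrl and KO2 Ctrl library than in WT Ctrl, and higher in every vehicle-treated KO library than in vehicle-treated WT libraries. The share of all genes with this pattern was not counted. It was not confined to these genes, since Areg, Rras2, Ier3 and Rps6ka2 of the wider list showed it too. Errfi1 did not, being lower in every knockout library of both sets. For Spry2 the log2 fold changes were -0.61, -0.41 and 0.42, and for Phlda1 they were -0.32, -0.55 and 0.29. In vehicle-treated cells Spry2 was separated by 36.8 CPM in the lowest KO library against 36.4 in the highest WT library, and its 0.42 ran from 0.14 without KO replicate 1 to 0.66 without KO replicate 2. Over the same omissions the 0.85 of Dusp5 ran from 0.58 to 1.14 and the 0.29 of Phlda1 from 0.19, without KO replicate 2, to 0.36. The difference between the experiments was not tested, since they were counted in separate tables and differ in vector, depth and possibly in the knockout line, which cannot be told apart.

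HU raised several of the feedback genes. In WT cells 4 of the 10 genes were higher after HU at an adjusted p below 0.05, with 9.83% of all genes (6.39% higher, 3.44% lower). In KO cells 4 were higher, with 6.45% of all genes (4.65% higher, 1.8% lower). The median log2 fold change of the 10 genes was 0.49 in WT and 0.41 in KO, and that of all genes was 0 in WT and -0.0098 in KO. The WT and KO comparisons share no library.

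Phlda1 responded most. It stood at 164 and 169 CPM in WT with vehicle and 557 and 545 with HU, and at 189 and 215 in KO with vehicle and 534 and 488 with HU. The rise was 3.31-fold in WT (log2 fold change 1.73, interval 1.51 to 1.95, edgeR adjusted p = 3.04e-20) and 2.52-fold in KO (1.34, 1.118 to 1.553, adjusted p = 1.24e-15). Dusp5 went from 20.6 and 13.9 CPM to 35.3 and 38.4 in WT and from 31.7 and 30.1 to 72.8 and 60.1 in KO. The rise was 2.15-fold in WT (1.11, 0.62 to 1.59, edgeR adjusted p = 0.000744) and 2.16-fold in KO (1.11, 0.68 to 1.53, adjusted p = 0.000125). In WT it did not pass without vehicle replicate 2 (0.83, adjusted p = 0.0676).

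Dusp4 went from 44.1 and 49.998 CPM to 103 and 83.1 in WT (1.97-fold, edgeR adjusted p = 1.06e-05) and from 80.9 and 68.5 to 114 and 128 in KO (1.62-fold, adjusted p = 0.00117). In KO it did not pass without vehicle replicate 2 (log2 fold change 0.57, adjusted p = 0.0612) or HU replicate 2 (0.61, adjusted p = 0.0547). Spry2 passed in WT (36.4 and 29.7 against 48.7 and 56.1 CPM, 0.67, edgeR adjusted p = 0.0269) and not in KO (52.0 and 36.8 against 71.4 and 57.7 CPM, 0.55, adjusted p = 0.0844). The WT call was absent with DESeq2 (adjusted p = 0.11) and without HU replicate 1 (0.77, 0.0638), HU replicate 2 (0.56, 0.251) or vehicle replicate 2 (0.51, 0.258), and Spry2 passed in KO without vehicle replicate 1 (0.82, adjusted p = 0.0309). Spry4 passed in KO (30.9 and 28.1 against 60.8 and 61.6 CPM, 2.08-fold, edgeR adjusted p = 0.000196) and not in WT (27.4 and 36.1 against 43.3 and 53.0 CPM, 1.51-fold, adjusted p = 0.0620).

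The remaining genes did not pass in either genotype. The log2 change of Dusp6 after HU was -0.14 (95% interval -0.39 to 0.12) in WT and 0.06 (-0.19 to 0.31) in KO. For Spred1 it was -0.24 and 0.01, for Etv4 0.17 and 0.27, and for Etv5 0.40 and -0.31. Nras went from 409 and 366 CPM to 306 and 328 in WT (-0.29, interval -0.50 to -0.08, edgeR adjusted p = 0.0714) and from 460.2 and 427 to 402 and 399 in KO (-0.15, -0.35 to 0.06, adjusted p = 0.524). In both genotypes the HU libraries lay below the vehicle libraries, and in WT the gene passed without vehicle replicate 2 (-0.38, adjusted p = 0.0306).

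**Figure D5:**
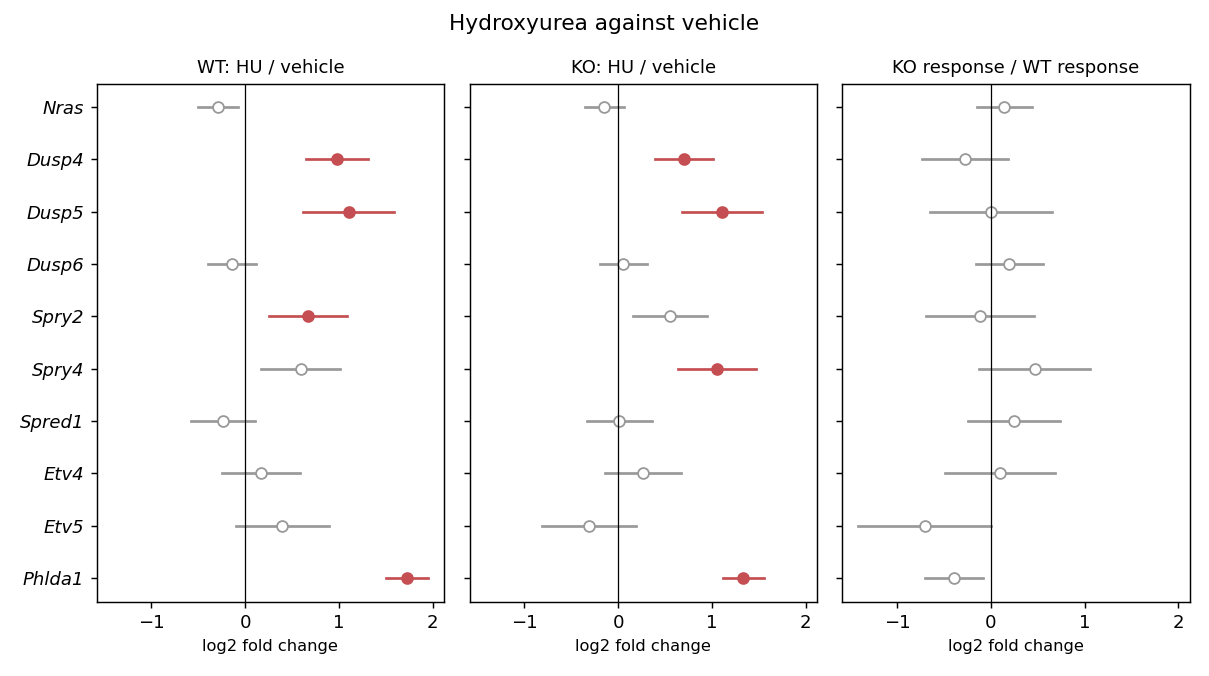
Log2 fold change after HU (horizontal axes) for the 10 genes (vertical axis) in WT and KO cells, and the KO response minus the WT response, with 95% confidence intervals. Filled red points passed the test as higher and open grey points did not. Phlda1 (1.73 and 1.34) and Dusp5 (1.11 and 1.11) lie farthest to the right in the first 2 panels.

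The HU response was compared between genotypes with an interaction term. By edgeR 0 of the 10 genes passed at an adjusted p below 0.05 (by DESeq2 also 0), with 0.0714% of all genes, and 1 of them, Phlda1, had an unadjusted p below 0.05. The KO response of Phlda1 minus the WT response was -0.39 (95% interval -0.70 to -0.08, edgeR adjusted p = 0.822), that of Dusp5 0.0019 (-0.65 to 0.65) and that of Spry4 0.47 (-0.13 to 1.06). The largest in size was that of Etv5, at -0.70 (-1.42 to 0.0057, unadjusted p = 0.0514 and adjusted p = 0.931 by edgeR). The medians of the term were 0.050 over the 10 genes and -0.0075 over all genes.

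After HU, Dusp5 was higher in KO than in WT (72.8 and 60.1 against 35.3 and 38.4 CPM, 1.80-fold, log2 fold change 0.85, interval 0.44 to 1.26, edgeR adjusted p = 0.00279). It was 1 gene of 10, with 6.04% of all genes passing (3.27% higher, 2.77% lower) at an adjusted p below 0.01, and the medians were 0.31 for the 10 genes and -0.0069 for all. It did not pass with DESeq2 (adjusted p = 0.0181) or without WT HU replicate 1 (0.79, adjusted p = 0.0719), WT HU replicate 2 (0.91, 0.0295) or KO HU replicate 1 (0.70, 0.109). Nras stood at 402 and 399 CPM in KO against 306 and 328 in WT and missed the threshold (0.34, interval 0.13 to 0.55, edgeR adjusted p = 0.0255), but passed with only the compared groups in the fit (adjusted p = 0.000624).

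Some other genes of the pathway rose with HU as well. Of the 97 listed, 78 were in this table. In WT 18 were higher at an adjusted p below 0.05, and in KO 16 were higher and 1 lower, with list medians of 0.20 and 0.14. These are 23.1% and 21.8% of the list, against 9.83% and 6.45% of all genes. Of 7 other MAPK phosphatases 3 were higher in WT and 4 in KO. Dusp1, an immediate-early phosphatase, stood at 0.857 and 1.504 CPM in WT with vehicle and 15.3 and 20.8 with HU (log2 fold change 3.86, edgeR adjusted p = 4.79e-08), and at 3.66 and 3.34 against 32.9 and 27.3 in KO (3.09, adjusted p = 2.76e-08). Dusp8, which acts mainly on stress kinases, had 3 counts in the WT vehicle libraries together and 88 in the WT HU libraries, a ratio of 24.3 after scaling (95% interval 8.05 to 120.1, counting error only). In KO it had 12 and 8 counts with vehicle and 57 and 39 with HU. Of 9 other Erk-induced transcripts, 5 were higher in WT and 4 in KO. Fos had 2 counts in the vehicle libraries of each genotype and 72 in WT HU and 62 in KO HU, ratios of 29.8 (7.96 to 251) and 31.5 (8.37 to 266). Every Fos count was even, as were 71.9% of counts from 1 to 50 in this experiment. The intervals of Fos and Dusp8 take each count as independent and were not repeated with halved counts, so they may be too narrow. Egr1 rose from 13.8 and 20.05 CPM to 325 and 235 in KO (4.03, edgeR adjusted p = 7.19e-29). In WT it rose from 33.4 and 24.8 CPM to 347 and 359. Of 10 growth factor ligands 5 were higher in each genotype. Among 5 other Ras GTPases and 8 adaptors and Ras activators, 0 passed in either genotype. The same held for 12 Raf, Mek and Erk kinases and scaffolds and for 8 receptor tyrosine kinases.

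Between genotypes in the HU experiment, 6 of the 78 genes were higher and 2 lower in KO with vehicle, and 7 were higher and 4 lower in KO with HU. These are 10.3% and 14.1% of the list, against 5.58% and 6.04% of all genes. Ier3, an Erk-induced survival gene, stood at 197 and 183 CPM in WT and 370.0 and 369.9 in KO with vehicle (log2 fold change 0.96, edgeR adjusted p = 5.90e-10), and at 219 and 220.3 against 506 and 476 with HU (1.16, adjusted p = 2.99e-13). Rras2, a relative of Ras, rose from 133 and 111 to 236 and 202 CPM in KO with vehicle (0.85, edgeR adjusted p = 3.85e-06) and Areg from 34.3 and 46.6 to 77.7 and 63.1 (0.78, adjusted p = 0.000477). Rras2 also stood higher in KO with HU (165 and 185 against 107 and 79.7 CPM), as did Areg (322 and 305 against 184 and 192). With HU, Etv1, an ETS factor related to Etv4 and Etv5, stood at 8.27 and 11.1 CPM in WT and at 0.707 and 0.790 in KO, where it had 2 counts in each library (-3.61, edgeR adjusted p = 0.000151). Etv1 was lower in KO with vehicle too (5.69 and 6.01 against 10.3 and 10.5 CPM). Errfi1, a feedback inhibitor of the EGF receptor, stood at 752 and 675 CPM in WT and 357 and 329 in KO with HU (-1.06, edgeR adjusted p = 3.68e-12). It was also lower in KO with vehicle (218 and 196 against 353 and 321 CPM). Hras passed in none of the HU comparisons made here.

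Across the groups of the first experiment, the order of the levels differed between genes. Dusp4 ran from WT Ctrl over WT Myc, KO2 Ctrl, KO1 Myc and KO1 Ctrl down to KO2 Myc, with no overlap between neighbors and a 5.31-fold span from 262 to 49.4 CPM in the means. Etv5 spanned 2.27-fold, with WT Ctrl, then WT Myc, then 4 knockout groups whose libraries overlapped their neighbors. Spry4 spanned 2.10-fold and Phlda1 1.88-fold, the latter led by WT Myc. Nras spanned 1.32-fold, Etv4 1.30-fold and Spred1 1.21-fold, and in Nras only the highest group (KO1 Ctrl) and the lowest (KO1 Myc) were clear of their neighbors. In the HU experiment, Dusp5 spanned 3.85-fold, Phlda1 3.32-fold and Dusp4 2.57-fold, with no overlap between neighboring groups, and Spred1 1.18-fold.

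Over the 12 libraries of the first experiment, log2 CPM of Dusp4 followed that of Etv5 (r = 0.95) and Spry2 (r = 0.95), whereas Dusp5 and Dusp6 ran against each other (r = -0.83). Over the 8 HU libraries the same pairs gave 0.02, 0.86 and 0.34, and Dusp5 followed Spry2 (r = 0.94) and Dusp4 (r = 0.91). Nras followed Dusp6 in both (r = 0.77 and 0.71). These values are descriptions, since libraries of a group are not independent points and share treatment and depth.

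The 3 genes outside the set whose log2 CPM was most like that of each member over the 12 libraries were listed by rule, with r over the 8 HU libraries beside it. For Nras they were Ctdnep1 (0.96 and 0.31), Traf5 (0.93 and -0.62) and Sdf4 (0.93 and 0.60). For Dusp4 they were Cbwd1 (0.99 and 0.42), Aldh3a2 (0.99 and -0.57) and the EGF receptor ligand Btc (0.99 and 0.87). For Dusp5 they were Odc1 (0.94 and 0.37), Plk2 (0.94 and 0.79) and Vps37b (0.93 and 0.87), and for Dusp6 Btg2 (0.97 and -0.08), Tmem63a (0.96 and 0.22) and Ube2e3 (0.96 and -0.33). Spry2 was most like Tmcc2 (0.98 and 0.74), Rbpms2 (0.98 and -0.03) and Ppa2 (0.98 and -0.01), and Spry4 like Rps6ka3 (0.97 and 0.72), Cd47 (0.97 and 0.28) and Mospd2 (0.96 and 0.52). The closest to Spred1 were Caprin1 (0.94 and 0.43), Dido1 (0.91 and 0.03) and Zdhhc5 (0.91 and 0.40), and to Etv4 Armc5 (0.93 and 0.60), Bcl3 (0.92 and 0.79) and Tmem173 (0.92 and -0.42). Etv5 was closest to Camk1 (0.99 and 0.33), Nfe2l2 (0.99 and 0.24) and Gm16378 (0.98 and 0.15), and Phlda1 to Tmem101 (0.96 and -0.55), Sem1 (0.96 and -0.75) and Angptl4 (0.95 and 0.93). Of these 30, Angptl4, Btc, Vps37b, Plk2, Bcl3, Tmcc2 and Rps6ka3 kept an r above 0.7 in the HU libraries.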

How the data were processed

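RNA-seq libraries of p19/Nras cells (12 in the first experiment, 8 with hydroxyurea) were analysed from counts per gene that the authors deposited. They were whole numbers and were used as raw counts. The authors' name for those of the first experiment ("Norm_counts") calls them normalized, and whether they had been scaled was not tested. Per the labels, the authors used STAR 2.5.4 on mm9 and edgeR 3.26.8, with bcl2fastq 2.20 and FastQC 0.11.5 for the second experiment. The counting tool, annotation and strand setting are not given in the sources used here. RNA extraction and kit differ between the labels (TRIzol, NEBNext Ultra II) and the paper. The authors' own comparison tables (fold changes, p-values) were not used.

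Counts were tested with edgeR 4.0.16 (limma 3.58.1, R 4.3.3), each experiment fitted alone with all its groups, TMM scaling and the quasi-likelihood test. P-values were adjusted by Benjamini-Hochberg over all genes. The threshold was 0.01 for genotype and Myc comparisons and their interactions, and 0.05 for HU against vehicle and its interaction. filterByExpr removed 0 genes. CPM were scaled by TMM, and 2 was the prior count of log2 CPM. Genes without a symbol (298 and 168) stayed in the tests. Depth was 14753177 to 17949430 and 2315327 to 3082202 counts, and intervals cover the spread between libraries. With 2 libraries a group an exact permutation test cannot go below 0.333. Of counts from 1 to 50, 71.9% were even in the HU experiment and 48.4% in the other, so halved counts were tried.

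On simulated data with known changes, edgeR recovered 94% of genes changed 2-fold in KO1 Ctrl against WT Ctrl (13107 genes) and 74.6% in WT HU against WT vehicle (11210 genes). Only 67 genes were changed 2-fold, all above a minimum count, and most genes were held equal between groups. In the data 52.2% of all genes passed in KO1 Ctrl, so these rates do not give the power of the tests reported here. Named genes were all 10 members, Hras, the 3 genes of the wider list with the largest change per comparison (mean of at least 5 CPM) and the 3 genes most like each member. A further gene of this rule is not reported here. Members and lists were chosen with earlier results of these data known. Alternatives were DESeq2 1.42.0, RLE scaling, no filter, the compared groups alone, a replicate block, halved counts (HU) and leaving out each library. Promoters came from RefSeq on GRCm38.p6.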

Additional observations from a re-analysis of the deposited data

Results flagged for a closer look

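The response to the Myc vector differed between genotypes in 10 tested interaction terms (edgeR, adjusted p below 0.01). These were 7 of the 10 genes for KO1, with 37.3% of all genes, and 3 of the 10 for KO2, with 32.8% of all genes. The KO2 count thus lies near the share of all genes. In KO1 against WT, the difference of the log2 responses was 1.38 for Dusp4, 1.32 for Dusp5, 1.01 for Spry4, 0.89 for Etv5, -0.46 for Nras, -0.59 for Phlda1 and -0.72 for Dusp6. In KO2 against WT it was 0.74 for Etv5, 0.64 for Dusp5 and -0.41 for Etv4. All 10 terms use the pair of WT Ctrl libraries and the libraries labelled WT Myc. Those for KO1 also use the libraries labelled KO1 Myc, in which Trim33 was higher than in WT Myc. Myc was not called higher in WT Myc than in WT Ctrl (log2 fold change 0.07, edgeR adjusted p = 0.310), while it rose by 1.73 in KO1 and 1.16 in KO2, and whether these libraries hold what their labels say was not tested. What each term compares depends on it.

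For 4 of the 10 genes every knockout library lay below every WT library in the control-vector cells and above every WT library in the vehicle-treated cells of the HU experiment. The share of all genes with this pattern was not counted, so the 4 cannot be set against it. Areg, Rras2, Ier3 and Rps6ka2 of the wider list showed the pattern too, and Errfi1 did not. The log2 fold changes in KO1 Ctrl, KO2 Ctrl and vehicle-treated KO cells were -2.06, -1.67 and 0.66 for Dusp4, -0.76, -0.50 and 0.85 for Dusp5, -0.61, -0.41 and 0.42 for Spry2, and -0.32, -0.55 and 0.29 for Phlda1. This difference between the experiments was not tested. In vehicle-treated cells only Dusp4 passed, a call lost with DESeq2, with halved counts, with the compared groups only and without WT replicate 1, WT replicate 2 or KO replicate 1, and the Spry2 value ran from 0.14 without KO replicate 1 to 0.66 without KO replicate 2.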

How the results depend on the processing

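Over 150 values (10 genes in 15 comparisons), 60 passed. RLE scaling gave 62 calls and a replicate block 63, each holding all 60. The fit without a filter only repeated the main fit, since the filter removed 0 genes. The compared groups alone gave 64 of 140 values (56 shared), DESeq2 57 (55 shared), and halved HU counts 9 of 10. Without 1 library, 228 of 280 values of the called pairs still passed, 40 of the 60 pairs passed in each such fit, and 0 changed sign. Of 90 uncalled pairs, 29 changed sign in at least 1 such fit, all with a log2 fold change of at most 0.26 in size, and 0 passed after it. Between the knockout lines 2 genes passed, 7 with the compared groups only and 0 to 2 with a library left out. In vehicle-treated KO cells 1 passed, 0 with halved counts, the compared groups only or DESeq2, and 0 to 1 with a library left out. In KO HU against WT HU 1 passed, 2 with the compared groups only, 0 with DESeq2 and 0 to 1 with a library left out. Leaving out a library gave 3 to 4 genes (5 before) for KO1 Myc against KO1 Ctrl, 3 to 8 (4) for KO1 Myc against WT Myc, 3 to 7 (6) for KO2 Myc against WT Myc and 1 to 7 (3) for the KO2 by Myc term. The cause was not tested, apart from the smaller number of libraries. Over all genes, calls moved by more than 1.5 times with the compared groups only (KO2 against KO1 Ctrl 2398 to 4029, KO1 Myc against WT Myc 3291 to 1541, KO2 Myc against WT Myc 4614 to 2775, KO HU against WT HU 677 to 1099) and with DESeq2 (WT HU 1102 to 727, KO HU 723 to 456, KO HU against WT HU 677 to 402, vehicle KO 626 to 396, KO by HU 8 to 5). Libraries of the same number shared little (correlation of deviations -0.148 to 0.192), so the numbers do not pair them; under the block Spry4 passed in WT after HU (adjusted p = 0.0497 by edgeR), Spry2 in the KO1 by Myc term (0.00906) and Dusp4 in the KO2 by Myc term (0.00391). A fit that leaves out a library keeps a lone library in that group, which is assumed to vary like the others. The HU libraries hold fewer counts and vary more, and in simulated data a 1.5-fold change was found in 44.8% of changed genes there (WT HU against WT vehicle, 11210 genes) and in 82.1% in KO1 Ctrl against WT Ctrl (13107 genes). Few genes were changed in the simulations, so these rates do not give the power of the tests themselves.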
